A study of Mus musculus with 18 samples.

Results

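A pooled CRISPR screen in MC38 cells carried 376 guides against 94 genes whose symbols begin with Tmem and a digit. They were found by that symbol rule alone and make up 2.07% of the 18146 guides in the deposited guide table. Every one of the 94 genes had 4 guides. MC38 is a mouse colon adenocarcinoma line of C57BL/6 origin, and the pool of cells had been implanted into B6-Rag1-KO mutant mice and into C57BL/6 wild-type mice. There was 1 guide library for each host, with 19114273 reads for Rag1-KO hosts and 27142741 reads for C57BL/6 hosts. How many mice contributed to a library, when tumours were taken, and how the Cas9 enzyme was supplied are not given in the sources used here. The labels of the screen samples name the cell line and the CRISPR library as treatment. The RNA of the targeted genes was read in 3 libraries of control MC38 cells, labelled as cells of the genotype Mbtps1 WT. Libraries of Mbtps1-knockdown MC38 cells entered only a count of genes with no RNA counts.

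Rag1 encodes a recombinase that cuts the antigen receptor genes, and mice without it lack mature T and B cells. A guide directs Cas9 to 1 gene, so that its share of the reads follows the cells in which that gene was cut. A guide that is scarcer in C57BL/6 hosts than in Rag1-KO hosts is read in such screens as marking cells that did relatively less well where T and B cells were present, and the comparison asks which genes have such guides. Tmem symbols are given to predicted membrane-spanning proteins before a function is known. They do not mark 1 family by descent. Of the 94 genes, 32 were placed in a list by a known role (cilium, ion transport, lipids, endoplasmic reticulum, Golgi and lysosome, immunity, mitochondrion or cell surface). Some genes outside the lists also have a known role, so the word uncharacterised applies to part of the 94 only.

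The guide table identifies guides by a number and a gene and holds no guide sequence, so no guide sequence is shown. The coding sequences of the target genes in GENCODE M21 (GRCm38) do show which genes cannot be separated by guides designed on them. Tmem254a, Tmem254b and Tmem254c are copies on chromosome 14 with the same coding sequence of 387 bases. Their spliced coding sequence holds 76 candidate Cas9 target sites of 20 bases followed by NGG, and all of them occur in all 3 copies. A guide designed on the spliced coding sequence of any of them thus matches that of all 3. The first 120 coding bases, with the start codon in capitals, are shown because they are the shared target:
Tmem254a: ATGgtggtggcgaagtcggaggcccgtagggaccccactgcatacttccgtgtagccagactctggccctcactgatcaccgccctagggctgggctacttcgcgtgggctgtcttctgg
Tmem254b: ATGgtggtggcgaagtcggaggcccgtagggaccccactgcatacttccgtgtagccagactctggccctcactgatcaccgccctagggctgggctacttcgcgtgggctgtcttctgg
Tmem254c: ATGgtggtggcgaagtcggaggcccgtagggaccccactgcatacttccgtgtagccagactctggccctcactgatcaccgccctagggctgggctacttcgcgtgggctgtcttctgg

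Of the 90 genes with a coding sequence under the same symbol, 7 share more than 10% of such sites with another gene model. Besides the Tmem254 copies these are Tmem239, with all of its 80 sites in Gm28372, Tmem189, with 132 of its 154 sites in Gm20431, Tmem184a, with 85 of its 243 sites in Gm26938, and Tmem208, with 19 of its 126 sites in Fhod1. None of these 4 partners is targeted by guides of its own in the table. Positions in the genome were not compared, so whether a partner model overlaps the gene or lies elsewhere was not tested. Below the 10% cut, Tmem191c shared 17 of its 183 sites (9.29%) with Pi4ka, which has guides of its own.

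All 376 Tmem guides were found in both libraries. Their reads ran from 7 to 7166 (median 848.5) in Rag1-KO hosts and from 6 to 9087 (median 1426) in C57BL/6 hosts. On the CPM scale (a guide's reads per 1000000 reads of its library), the median Tmem guide stood at 44.4 CPM in Rag1-KO hosts and at 52.5 CPM in C57BL/6 hosts, and the median of all guides at 40.8 CPM in Rag1-KO hosts and 44.7 CPM in C57BL/6 hosts. Tmem guides took 2.25% of all reads in Rag1-KO hosts and 2.35% in C57BL/6 hosts, slightly more than their 2.07% of the guides. None of the 376 fell under the minimum of 20 reads over both libraries, and 3 had fewer than 100.

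The change of a guide is given as the log2 ratio of its CPM in C57BL/6 hosts over its CPM in Rag1-KO hosts, after adding 1 CPM to each, so that a positive value means more in C57BL/6 hosts. The median over the 376 Tmem guides was 0.13, against 0.12 over all 18108 guides with at least 20 reads, 0.12 over the 2128 olfactory receptor guides and 0.08 over the 28 control guides. The SD was 0.98 over Tmem guides, 0.93 over all guides and 0.93 over control guides. A difference of 2-fold or more towards C57BL/6 hosts was seen in 60 Tmem guides (15.96%), where all guides gave 14.9%. A difference of that size towards Rag1-KO hosts was seen in 47 (12.5%), where all guides gave 11.1%. The remaining 269 lay within 2-fold. Of the 28 control guides, 4 were past 2-fold towards C57BL/6 hosts and 3 towards Rag1-KO hosts, so guides with no gene target spread about as widely as Tmem guides.

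Counting error, taken with every read as independent, is small beside this spread. The median counting error of a Tmem guide's log2 ratio was 0.06, against 0.07 over all guides. An exact 95% interval, where given, covers counting error only. It treats reads as independent, and whether copies of the same molecule were counted more than once is not given. With 1 library per host there is no replicate and no test, so whether a ratio would recur in another pair of hosts was not measured.

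The 4 guides of a gene are the nearest thing to a repeat within the screen, although they share the same 2 libraries and may differ in cutting. Among the 94 Tmem genes the intraclass correlation of the log2 ratio, which is 1 where guides of a gene are alike and 0 where they are no more alike than guides of different genes, was 0.01 (0.02 over the 4491 genes of the table with 4 guides of enough reads). The SD between guides of the same Tmem gene was 0.97, close to the 0.98 over all Tmem guides. The 4 guides of a Tmem gene spanned a median of 1.84 on the log2 scale (1.75 over all genes). In 14 Tmem genes (14.9%) 1 guide was past 2-fold towards C57BL/6 hosts and another past 2-fold towards Rag1-KO hosts, as in 14.3% of all genes. The abundance of guides was more alike within genes than their ratio, with an intraclass correlation of log2 CPM of 0.12 in Rag1-KO hosts and 0.13 in C57BL/6 hosts. Over all genes these were 0.14 in Rag1-KO hosts and 0.15 in C57BL/6 hosts.

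The guides of the Tmem254 copies, whose coding sequences are the same, spread in this way too, although where each guide lies is not known. Tmem254a had 10.8, 10.9, 21.9 and 27.2 CPM in Rag1-KO hosts, against 48.8, 37.5, 25.6 and 37.7 CPM in C57BL/6 hosts. Tmem254b had 43.6, 18.2, 68.95 and 8.95 CPM in Rag1-KO hosts, against 52.2, 28.3, 105 and 6.48 CPM in C57BL/6 hosts. Tmem254c had 86.5, 37.4, 91.8 and 66.3 CPM in Rag1-KO hosts, against 72.4, 127, 67.3 and 17.4 CPM in C57BL/6 hosts. All 4 Tmem254a guides were more abundant in C57BL/6 hosts, whereas 3 of the 4 Tmem254c guides were more abundant in Rag1-KO hosts. The gene medians were 1.07 for Tmem254a, 0.42 for Tmem254b and -0.35 for Tmem254c, and the 12 guides ran from -1.87 to 2.07 with an SD of 1.10 and a median of 0.35. Of these 12 guides, 8 lay above 0 and 4 below.

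Summarised by the median of its 4 guides, a Tmem gene lay at 1 or above in 4 cases (4.26%), where all 4528 genes with at least 3 measured guides gave 3.56%. It lay at -1 or below in 2 cases (2.13%), where all genes gave 1.83%. When ratios were centred on the median of all guides, which lowers every ratio by 0.12, the split of 4 and 2 turned into 1 and 5. The SD of the gene medians was 0.51 over Tmem genes and 0.50 over all genes.

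The 4 Tmem genes with a median of 1 or above were Tmem229a, Tmem254a, Tmem219 and Tmem26. Tmem229a, a gene without a settled function, had 36.7, 177, 27.6 and 94.6 CPM in Rag1-KO hosts, against 73.02, 129, 151 and 242 CPM in C57BL/6 hosts. Guide 16840 (the numbers are those of the table) was lower in C57BL/6 hosts, at -0.46, and the other 3 were higher, up to 2.41 for guide 16841. The Tmem229a median was 1.16. Tmem219, whose human counterpart is a receptor for the growth factor binding protein IGFBP3, had 97.05, 33.9, 7.27 and 19.9 CPM in Rag1-KO hosts, against 96.6, 45.4, 35.8 and 66.7 CPM in C57BL/6 hosts. Its ratios fell into a pair near 0 and a pair above 1 (-0.01, 0.41, 2.15 and 1.70), so the median of 1.05 lay between them. Tmem26, a marker of beige fat cells in mice, had 1.05, 34.2, 15.6 and 49.96 CPM in Rag1-KO hosts, against 2.62, 81.2, 18.2 and 122 CPM in C57BL/6 hosts. All 4 Tmem26 guides were above 0, from 0.21 to 1.27, with a median of 1.02, but guide 16911 rested on 20 reads in Rag1-KO hosts and 71 reads in C57BL/6 hosts. Leaving out any 1 guide gave medians from 0.97 to 1.35 for Tmem229a, 0.45 to 1.69 for Tmem254a, 0.41 to 1.70 for Tmem219 and 0.82 to 1.22 for Tmem26, so all 4 lay under 1 without some single guide.

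The 2 genes with a median of -1 or below were Tmem128 and Tmem189. Tmem189 encodes the desaturase that makes plasmalogens, a class of ether lipids with a vinyl bond. Its guides stood at 219, 91.1, 40.4 and 86.6 CPM in Rag1-KO hosts, against 108, 55.3, 16.9 and 29.7 CPM in C57BL/6 hosts. All 4 ratios were negative (-1.01, -0.71, -1.21 and -1.51), 3 of them past 2-fold, with a median of -1.11. The median stayed between -1.21 and -1.01 with any 1 guide left out. Most candidate sites of this gene also lie in the gene model Gm20431, whose position was not compared. Tmem189 was the single Tmem gene with 3 or more guides past 2-fold in the same direction (1.06% of the 94, where 0.729% of all genes had 3 or more towards Rag1-KO hosts and 1.55% towards C57BL/6 hosts). Tmem128, without a settled function, had 25.4, 24.5, 3.35 and 101 CPM in Rag1-KO hosts, against 7.33, 15.4, 11.6 and 19.8 CPM in C57BL/6 hosts. Its ratios of -1.67, -0.64, 1.54 and -2.29 gave a median of -1.15, but they included 1 guide that was higher in C57BL/6 hosts. Without any 1 guide the Tmem128 median was -1.67 to -0.64.

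The next genes towards Rag1-KO hosts lay just short of 2-fold. Tmem140 (median -0.98), Tmem225 (-0.91), Tmem108, a neuronal membrane protein (-0.89), Tmem33, a protein of the endoplasmic reticulum membrane (-0.86), and Tmem253 (-0.83) each had 1 guide above 0 and 3 below. Tmem119, known as a marker of microglia in the brain, had 103, 189, 202 and 173 CPM in Rag1-KO hosts, against 73.7, 60.3, 162 and 71.8 CPM in C57BL/6 hosts. Its 4 guides were among the more abundant of the table in both hosts and were all lower in C57BL/6 hosts (-0.48, -1.63, -0.32 and -1.25), with a median of -0.87. Towards C57BL/6 hosts, Tmem211 (median 0.98), Tmem258 (0.92), Tmem170 (0.86) and Tmem38b, an intracellular potassium channel (0.78), came next. Each of these 4 had 1 guide below 0.

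The 4 guides lay on the same side of 0 in 12 Tmem genes, 8 above (8.51%, where all genes gave 10.1%) and 4 below (4.26%, where all genes gave 4%). The genes below were Tmem119, Tmem150a, Tmem189 and Tmem243, and those above were Tmem26, Tmem132b, Tmem184a, Tmem190, Tmem200b, Tmem203, Tmem252 and Tmem254a. Apart from genes already given, they are named for this pattern after their values were seen. The narrowest of them was Tmem190, a sperm protein in mice, with 41.96, 36.7, 47.5 and 42.1 CPM in Rag1-KO hosts, against 63.6, 55.3, 49.9 and 49.9 CPM in C57BL/6 hosts and ratios of 0.59, 0.58, 0.07 and 0.24. Tmem203, a protein of the endoplasmic reticulum that takes part in calcium handling, had ratios of 1.02, 0.70, 0.38 and 0.63, and Tmem200b 0.33, 0.78, 0.33 and 1.04. Guides of Tmem150a lay closer to 0, at -0.28, -0.06, -0.30 and -0.64. In the other 82 genes guides fell on both sides, most often 2 above and 2 below (34 genes, 36.2%, against 35.2% of all genes) or 3 above and 1 below (31 genes, 32.98%, against 30.7% of all genes).

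Single guides carried the most extreme ratios, and in the genes given in this paragraph the other guides stood far from them. Elsewhere a second guide went the same way. Beside their highest guide, Tmem211, Tmem219, Tmem229a, Tmem254a and Tmem258 each had another past 2-fold towards C57BL/6 hosts. Beside its lowest guide, Tmem128 had another past 2-fold towards Rag1-KO hosts. Guide 16692 to Tmem132b, a member of a family of large surface proteins, had 27.00 CPM in Rag1-KO hosts and 335 CPM in C57BL/6 hosts, or 516 reads in Rag1-KO hosts and 9087 reads in C57BL/6 hosts, a ratio of 3.58. The other 3 Tmem132b guides had ratios of 0.12, 0.35 and 0.16. The most abundant Tmem132b guide held 49.0% of the gene's CPM in Rag1-KO hosts, where it was guide 16694, and 67.4% in C57BL/6 hosts, where it was guide 16692. At the other end, guide 16707 to Tmem14c, a mitochondrial protein of haem synthesis in mice, had 528 reads in Rag1-KO hosts and 6 reads in C57BL/6 hosts, a ratio of -4.55 and of -6.97 (exact 95% interval -8.42 to -5.83) without the added 1 CPM. The other 3 Tmem14c guides lay at -0.56, 0.28 and 0.04. Guide 16922 to Tmem28 had 153 CPM in Rag1-KO hosts and 19.8 CPM in C57BL/6 hosts (ratio -2.88), while the other 3 guides lay between -0.35 and 0.36. Guide 16881 to Tmem243 had 13.8 CPM in Rag1-KO hosts and 1.62 CPM in C57BL/6 hosts (ratio -2.50), and the other 3 lay between -0.22 and -0.12. For Tmem9, a lysosomal protein, guide 16997 was at -2.43 and guide 16998 at 1.40.

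Tmem258 had the widest spread of the 94 genes. It encodes a small subunit of the oligosaccharyltransferase, the enzyme that attaches sugar chains to asparagines of new proteins. Its guides had 8.68, 8.58, 8.004 and 42.5 CPM in Rag1-KO hosts, against 48.9, 31.5, 8.51 and 5.53 CPM in C57BL/6 hosts. Guides 16907 and 16908 were more than 2-fold higher in C57BL/6 hosts (2.37 and 1.76), guide 16909 was level (0.08), and guide 16910 was lower (-2.74). The median of 0.92 thus stands for guides that lay 5.10 apart on the log2 scale, and ran from 0.08 to 1.76 with 1 guide left out.

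Genes also differed in how abundant their guides were in both hosts. Of the 94 genes, Tmem208 had the lowest mean guide abundance, 15.5 CPM in Rag1-KO hosts and 13.5 CPM in C57BL/6 hosts, at percentile 2.10 of all genes. The human counterpart of Tmem208 helps to bring new proteins to the endoplasmic reticulum. Its guides had 12.8, 19.5, 8.06 and 21.8 CPM in Rag1-KO hosts, against 10.7, 13.1, 16.7 and 13.4 CPM in C57BL/6 hosts, all of them well under the medians of the table. Tmem258 followed at 16.95 CPM in Rag1-KO hosts and 23.6 CPM in C57BL/6 hosts (percentile 5.41), then Tmem95, a sperm protein needed for fertilisation in mice, at 23.5 CPM in Rag1-KO hosts and 17.2 CPM in C57BL/6 hosts (percentile 5.50). Tmem199, whose human counterpart takes part in assembly of the proton pump of acidic compartments, averaged 27.2 CPM in Rag1-KO hosts and 21.6 CPM in C57BL/6 hosts (percentile 8.77), and Tmem150c 30.5 CPM in Rag1-KO hosts and 18.5 CPM in C57BL/6 hosts (percentile 8.90). These means rest on unlike guides. The Tmem199 guides had 7.06, 68.6, 26.00 and 7.22 CPM in Rag1-KO hosts, against 9.43, 19.4, 31.2 and 26.4 CPM in C57BL/6 hosts. The Tmem150c guides had 0.366, 69.01, 38.6 and 13.9 CPM in Rag1-KO hosts, against 1.22, 51.9, 11.6 and 9.36 CPM in C57BL/6 hosts. Each of these 2 genes had a guide above the median of all guides in Rag1-KO hosts. Tmem95 and Tmem150c are listed at 0 in the RNA of control cells, whereas Tmem208 stood at 13.01 ± 0.779 CPM, Tmem258 at 23.1 ± 3.10 CPM and Tmem199 at 28.3 ± 5.65 CPM (SD, n = 3). Low guide abundance was thus found both for genes with measured RNA and for genes listed at 0, which are not shown to lack RNA. Guide counts of the cells before implantation were not used here, and loss of cells cannot be told apart from a low share at the start.

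A guide was counted as scarce where it lay in the lowest 10% of both libraries, under 9.10 CPM in Rag1-KO hosts and under 10.5 CPM in C57BL/6 hosts. This held for 13 Tmem guides (3.46%), where all guides gave 6.31%. They were spread over 12 genes, with 2 of them in Tmem242, whose human counterpart takes part in assembly of mitochondrial complexes. The 4 Tmem242 guides had 2.04, 0.889, 45.8 and 51.8 CPM in Rag1-KO hosts, against 3.68, 6.63, 66.9 and 41.6 CPM in C57BL/6 hosts, so that guides 16875 and 16876 were scarce and the other 2 were not. Of the 94 Tmem genes, 0 had 3 or more scarce guides, where all genes gave 0.486%. The most abundant Tmem genes were Tmem119 (mean 167 CPM in Rag1-KO hosts and 91.8 CPM in C57BL/6 hosts), Tmem191c (135 CPM in Rag1-KO hosts and 119 CPM in C57BL/6 hosts), Tmem238 (97.3 CPM in Rag1-KO hosts and 143 CPM in C57BL/6 hosts), Tmem229a (83.9 CPM in Rag1-KO hosts and 149 CPM in C57BL/6 hosts) and Tmem229b (111 CPM in Rag1-KO hosts and 121 CPM in C57BL/6 hosts), all above percentile 97 of all genes.

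Grouped by role, gene medians lay on both sides of 0 in every list with more than 1 gene. Of the 5 genes of the ciliary transition zone, the gate at the base of the cilium, gene medians ran from -0.25 for Tmem216 to 0.60 for Tmem67, and of their 20 guides 2 were past 2-fold towards C57BL/6 hosts and 4 towards Rag1-KO hosts. With lists this small, these counts and those of the lists that follow are read beside the shares over all guides, 14.9% and 11.1% in those directions, and nothing is read from them about a list. Tmem237, whose 4 guides lay closest together on the log2 scale among these 5 genes, had 78.4, 69.6, 36.7 and 54.3 CPM in Rag1-KO hosts, against 114, 58.2, 58.4 and 60.8 CPM in C57BL/6 hosts, a median of 0.35. The median of Tmem107 was 0.46, with ratios of 1.65, 0.22, -0.11 and 0.71. The 3 ion channel and transport genes had 3 of 12 guides past 2-fold towards C57BL/6 hosts (all guides, 14.9%) and 0 towards Rag1-KO hosts (all guides, 11.1%). They were the potassium channel gene Tmem38b, the zinc transporter gene Tmem163 (median 0.39) and the stretch-activated channel gene Tmem63b (median -0.26). Tmem163 had 48.8, 21.9, 54.7 and 9.63 CPM in Rag1-KO hosts, against 84.9, 15.1, 134 and 9.62 CPM in C57BL/6 hosts, with 1 guide level and 1 lower in C57BL/6 hosts.

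The 4 lipid genes had gene medians from -1.11 to 0.19 and 3 of 16 guides past 2-fold towards C57BL/6 hosts (all guides, 14.9%) and 4 towards Rag1-KO hosts (all guides, 11.1%). Of those 4, 3 belonged to Tmem189. Tmem30b, a partner subunit of lipid flippases, had a median of 0.16, and the phosphoinositide phosphatase genes Tmem55a and Tmem55b had 0.19 and 0.03, of which that of Tmem55b turned negative under each other scaling. The 4 endoplasmic reticulum genes were Tmem33, Tmem129, Tmem208 and Tmem258. Human TMEM129 is a ubiquitin ligase that removes proteins from the endoplasmic reticulum. Tmem129 had 27.5, 43.3, 37.6 and 51.5 CPM in Rag1-KO hosts, against 40.2, 37.2, 75.6 and 99.99 CPM in C57BL/6 hosts, a median of 0.74. The median of Tmem208 was -0.39, and that list as a whole had a guide median of -0.07.

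Among the 5 genes of Golgi, endosome and lysosome, gene medians ran from -0.20 for Tmem59 to 0.31 for Tmem199. The related lysosomal genes Tmem9 and Tmem9b had medians of 0.25 and 0.21. Tmem127 is a tumour suppressor of the endosome whose human counterpart also takes part in the turnover of MHC class I. It had 54.1, 228, 81.8 and 25.9 CPM in Rag1-KO hosts, against 60.9, 126, 67.7 and 27.6 CPM in C57BL/6 hosts. The Tmem127 ratios of 0.17, -0.85, -0.27 and 0.09 lay within 2-fold throughout, with a median of -0.09. Tmem176b, an ion channel of dendritic cells and the single gene of the immunity list in the screen, had 26.5, 73.5, 31.8 and 22.4 CPM in Rag1-KO hosts, against 27.6, 86.2, 12.3 and 77.3 CPM in C57BL/6 hosts. Its ratios of 0.06, 0.23, -1.30 and 1.74 ran in both directions, with a median of 0.14. The 2 mitochondrial genes, Tmem14c and Tmem242, had medians of -0.26 and 0.58. Over the 8 cell surface genes, 6 of 32 guides were past 2-fold towards C57BL/6 hosts (all guides, 14.9%) and 6 towards Rag1-KO hosts (all guides, 11.1%). Within it, Tmem114, a claudin-related gene of the lens, spanned -2.10 to 0.90, and Tmem88, an inhibitor of Wnt signalling, spanned -0.61 to 1.10.

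RNA of control MC38 cells was read as a measure independent of the screen, from libraries of 14240353 to 15155599 counts. Of the 94 genes, 69 had a row in the gene table, 4 of them under a newer symbol, and 25 had none. A mean of at least 1 CPM was found for 53 genes (56.4%), against 27.1% of all genes in the screen. A further 6 (6.38%) lay above 0 and under 1 CPM, against 7.31% of all genes, and 10 (10.6%) were listed at 0, against 17.9%. The 25 without a row were 26.6% of the Tmem genes, against 47.7% of all genes, so part of the difference at 1 CPM lies in which genes have a row. The libraries labelled as cells numbered 6, those of control and of Mbtps1-knockdown cells. Over them, 2582 genes were at 0 in all 6 and 0 genes were at 0 in exactly 4 or 5. The zeros thus come as a block, and a gene listed at 0, or without a row, is not shown to lack RNA. The 212 guides to the 53 genes with at least 1 CPM had a median of 45.1 CPM in Rag1-KO hosts and 49.5 CPM in C57BL/6 hosts, and the 40 guides to genes listed at 0 had 39.6 CPM in Rag1-KO hosts and 48.1 CPM in C57BL/6 hosts. The median log2 ratio was 0.08 for guides to genes with at least 1 CPM, with an SD of 1.001, and 0.16 for guides to genes listed at 0, with an SD of 0.81. Over all genes of the screen, the SDs of those classes were 0.95 and 0.88.

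Of the 6 genes with a median past 2-fold, Tmem128 RNA stood at 57.7 ± 4.55 CPM and Tmem219 RNA at 8.36 ± 1.13 CPM (SD, n = 3 control cell libraries). Tmem26 is listed at 0, and Tmem189, Tmem229a and Tmem254a have no row. The Tmem genes with the most RNA were Tmem59 (129 ± 3.60 CPM) and Tmem33 (128 ± 13.9 CPM). The median ratio of Tmem33 was -0.86. That of Tmem59 was -0.20, and its ratio was 0.32 when reads were summed over its guides, so its direction depended on the summary. Tmem8c, which drives fusion of muscle precursors and is listed at 0 under its newer symbol Mymk, had ratios of -0.54, 0.78, 0.23 and 0.26, within 2-fold in all 4 guides.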

How the data were processed

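Guide abundance was measured in MC38 cells recovered from hosts, 1 library for Rag1-KO and 1 for C57BL/6 hosts, and mRNA in 3 libraries of control MC38 cells. Both deposited tables hold raw counts as whole numbers, per guide in the screen and per gene symbol for the RNA, and the authors had not normalised them. How guides were counted is not given in the labels. Per the submitters' processing notes the tools were HTSeq 0.13.5, Cufflinks 0.17.3, STAR 2.7.1a, FastQC 0.11.9, SAMtools 1.3.1 and cutadapt 1.18, with no roles, and the build hg38, whereas the gene symbols are those of mouse. No value column lacked a sample.

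Guide counts were scaled to the library total (CPM), and log2 ratios of C57BL/6 over Rag1-KO were taken with a pseudocount of 1 CPM where a guide's reads in the 2 libraries summed to 20 or more. Genes were summarised by the median where at least 3 guides were measured, and a value of at least 1 or at most -1 (2-fold) was counted as past the threshold. Intervals are exact (Clopper-Pearson, 95%), on the share of a guide's reads from C57BL/6 hosts. Without replicates no test was made. Target sites were searched on both strands of spliced GENCODE M21 coding sequences. Sites across exon junctions were thus included, and sites reaching into introns were not. Older symbols were matched through RefSeq (GRCm38.p6). Work used Python 3.11.15, pandas 2.3.3 and scipy 1.17.1. The calculation of the ratio was checked on simulated counts with counting error only and the same effect in every guide of a gene. That check does not cover guides of a gene that differ.

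The named genes were the 8 highest and 8 lowest medians, the 6 highest and 6 lowest guides of at least 100 reads, the 5 genes with most and 5 with fewest reads, the 5 with the widest spread, and up to 3 of each role list with the most reads together with any past 2-fold. Other genes, namely Tmem67, Tmem55a, Tmem59, Tmem150a, Tmem190, Tmem200b, Tmem203, Tmem184a, Tmem239, Tmem252, Tmem254b and Tmem8c, were named after their values were seen. The genes and role lists were chosen with earlier results of these data known. RNA of tumours was not used here, and that of Mbtps1-knockdown cells only to count genes listed at 0.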

Additional observations from a re-analysis of the deposited data

How the results depend on the processing

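The 60 and 47 Tmem guides past 2-fold in either direction stayed within 1.5 times of these counts under each of the 7 alternatives tried for them, with ranges of 46 to 65 and 41 to 55, as did the 12 genes with guides on the same side of 0 (9 to 13). Which direction had more guides depended on the scaling. The counts towards C57BL/6 and Rag1-KO hosts were 49 and 55 when centred on all guides or with size factors. They were 51 and 51 when centred on the control guides. The median over Tmem guides was 0.13 with a pseudocount of 0.1 CPM, 0.11 with 5 CPM, 0.0026 when centred on all guides, 0.041 when centred on the control guides and 0.0054 with size factors by the median of ratios. The genes with a median of 1 or above numbered 1 with a pseudocount of 5 CPM and 1 under each of the 3 other scalings, in place of 4. The genes at -1 or below numbered 1 with a pseudocount of 5 CPM and 5 when centred on all guides or with size factors, in place of 2, and 3 when centred on the control guides. Of the 6 genes past 2-fold, 2 stayed past it with a pseudocount of 5 CPM (Tmem189 and Tmem229a) and 3 under each other scaling (the same 2 and Tmem128). With the mean over guides, 4 stayed past it (Tmem189, Tmem219, Tmem229a and Tmem254a). With reads summed over guides, 4 did, but not the same 4 (Tmem26, Tmem128, Tmem189 and Tmem254a). None of the 6 changed sign. Other genes passed 2-fold under these 2 summaries, such as Tmem132b (1.06 with the mean and 1.56 with summed reads). Of the 43 named genes, the sign of the summary changed for 6 with summed reads (Tmem9, Tmem55b, Tmem63b, Tmem199, Tmem229b and Tmem254c), for 3 with the mean (Tmem9, Tmem55b and Tmem88), and for 1 in each of the scalings (Tmem55b) and with 5 CPM (Tmem28). No paired analysis was possible because the screen has 1 library per host and no test was made. Counting error is 0.06 for the median guide but 0.59 for guide 16707 to Tmem14c, with 6 reads in C57BL/6 hosts, and a minimum of 100 reads gave a median of 1.22 for Tmem26, in place of 1.02. Error between libraries was not measured.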

Other observations

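Among the 126 least abundant Tmem guides, up to a mean of 35.0 CPM over both libraries, the SD of the log2 ratio was 1.08, and 20 guides were past 2-fold towards C57BL/6 hosts and 19 towards Rag1-KO hosts, together 31.0% against 28.4% of all guides of that abundance. Among the 124 guides of middle abundance, up to 68.3 CPM, the SD was 0.86, with 23 and 12 guides past 2-fold in those directions, together 28.2% against 24.0% of all guides. Among the 126 most abundant guides the SD was 0.98, with 17 and 16 past 2-fold, together 26.2% against 24.9% of all guides. The median counting error over these classes was 0.10, 0.06 and 0.05. Over Tmem guides, log2 CPM in Rag1-KO hosts and in C57BL/6 hosts had a Pearson r of 0.71 across the 376 guides, which share the same pool of cells and are not independent replicates, and over all 18108 guides it was 0.77. The numbers of 368 Tmem guides run on from 16643 to 17010, and those of Tmem189 (18075 to 18078) and Tmem184a (18143 to 18146) stand apart from that run. Both of these genes are among the 12 with all guides on the same side of 0, Tmem189 below (all genes, 4%) and Tmem184a above (all genes, 10.1%). Whether guides numbered apart from the run differ from the others was not tested. Tmem184a had 66.6, 119, 25.4 and 32.3 CPM in Rag1-KO hosts, against 110.2, 161, 87.6 and 40.2 CPM in C57BL/6 hosts.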
